A study of Mus musculus with 10 samples.

Results

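The 10 genes described here are ones that other cell types are known to switch on when oxygen is short were followed in MC3T3-E1 cells, a mouse osteoblast precursor line, with and without β-ecdysterone, a plant steroid. They are Car9, Slc2a1, Slc16a3, Pdk1, Bnip3, Vegfa, Adm, P4ha1, Ndrg1 and Ankrd37, and they were taken by name as hypoxia targets outside the glycolytic enzymes. Each name matched 1 row, giving 10 of the 29583 rows in the table. The set was chosen by its difference between treated cells and cells at 0 μM, so that difference is given only as a description, with levels, fold changes, errors and how many passed the limits, and no p-value is given for it.

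The cells were MC3T3-E1 subclone 14, a single clone, with the strain given as C57BL/6 and the age as newborn, and nothing in the labels described a change in oxygen supply. They were cultured with 100, 150 or 200 μM β-ecdysterone or at 0 μM for 5 or 10 days, with 1 library per dose and day. The 6 treated libraries were compared with the 2 at 0 μM, and the doses stood in as replicates, since RNA extraction is given as n = 3 but the table holds 1 column of counts per dose and day. A further 2 libraries, A-5 and B-4, are labelled untreated with no dose and no day, and are described one by one.

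Under low oxygen the α subunit of hypoxia-inducible factor (HIF) escapes hydroxylation by the Egln prolyl hydroxylases, pairs with Arnt and binds short DNA sites with the core ACGTG or GCGTG. Its targets shift cells from mitochondrial respiration to glycolysis, export the acid that results, recruit blood vessels and modify collagen. In bone, this pathway is known for coupling vessel growth to bone formation. The same targets are also set by other inputs.

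The label for the source material is bone marrow mesenchymal stem cells, while the sample titles give MC3T3-E1. Of 10 osteoblast markers, none stayed below 1 CPM (counts scaled to a common library size by TMM) in every library. Runx2 stood at 95.2 and 88.4 CPM at 0 μM on days 5 and 10, but Alpl, a defining marker of osteoblasts, had 0 and 2 counts there, against 16.1 to 65.3 CPM in treated cells. Against 0 μM, 5 of the 10 were called higher and 0 lower by edgeR, where 13.4% of all genes tested were called higher. The median log2 fold change of the 10 was 1.29, and those called higher included Ibsp (8.61, SE 0.88) and Sp7 (3.74, SE 0.34). Spp1 went the other way, at 1738 and 1735 CPM at 0 μM and 801 to 1628 CPM in treated cells. Summed over their lists, osteoblast markers, mostly Col1a1 and Col1a2, held 23450 to 28091 CPM at 0 μM and 18939 to 39598 CPM in treated cells, and stromal markers 2211 to 2274 CPM and 3964 to 6031 CPM. The 7 endothelial markers summed to at most 8.42 CPM in any treated library and 2.03 CPM at 0 μM, and 4 of them, Pecam1, Tie1, Kdr and Emcn, stayed below 1 CPM throughout. The 6 adipocyte markers summed to at most 5.63 CPM, and macrophage markers to 17.8 to 62.9 CPM over the 8 libraries, most of it Lyz2, with Adgre1, Csf1r, Ptprc, Fcgr1 and Itgam below 1 CPM. Of the markers tested, 3 of 5 endothelial, 2 of 4 macrophage, 1 of 4 adipocyte and 3 of 7 stromal were also called higher. In these lists 0 were called lower. Library totals ranged from 27108562 to 58218009 counts. In bulk RNA, fewer cells of a type and less RNA per cell cannot be told apart.

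RefSeq starts on GRCm38.p6 were found for 9 of the 10 genes, with 11 starts in all; Ndrg1 is named only. The 250 bases before each start were searched for ACGTG and GCGTG on both strands, where the reverse reads CACGT and CACGC. A match was present before 9 of the 11 starts (81.8%), against 38.6% of all 32851 starts and 53.2% of the 13828 starts of genes that entered the test against 0 μM. The starts without a match were 1 of the 2 starts of Vegfa and 1 of the 2 of Pdk1. The matches nearest to the start are given here for 6 genes that were lower in treated cells and for Slc16a3, which was not, since the same core stands before genes of both kinds. Capitals mark the core, and each run ends before the start or 12 bases past the core.
Car9 (chr4:43506996-43507024, plus strand, core 18 bases before the start): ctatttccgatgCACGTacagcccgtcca
Slc2a1 (chr4:119108697-119108725, plus strand, 36 bases before): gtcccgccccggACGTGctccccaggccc
Pdk1 (chr2:71873134-71873162, plus strand, 78 bases before): ccgcctacatggGCGTGtctttaaccagg
Bnip3 (chr7:138909525-138909553, minus strand, 35 bases before): ggctccgccgccGCGTGcgtcccgccccg
P4ha1 (chr10:59323268-59323295, plus strand, 16 bases before): tgtgacagagcgCACGTagcgagggctg
Ankrd37 (chr8:45999851-45999868, minus strand, 6 bases before): cagtgtttgggtACGTGa
Slc16a3 (chr11:120949041-120949066, plus strand, 14 bases before): cgtgcgcgggggACGTGccgcgcgac
Bnip3 held the most matches, 5, of which a pair overlapped in CACGTG at 108 and 107 bases before the start, a letter run present before 6.02% of all starts. The stretches of Car9, Slc2a1, Ankrd37 and Slc16a3 overlap an exon in the GENCODE M21 annotation, which places other starts for these genes. A match is a run of letters and not a measured site.

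Of the 9 genes that passed the filter on low counts, 6 were past the limits used for a call (log2 fold change beyond 1, adjusted p under 0.05) on the lower side in treated cells and 0 on the higher side. Among all 16794 genes tested, 5.98% were called lower and 13.4% called higher, and no more is read from the members' count because they were selected on this contrast. All 6 treated libraries lay below both 0 μM libraries for 6 members and above both for 2, against 26.4% and 26.3% of all genes tested. Car9 and Ankrd37 differed most, Pdk1, P4ha1 and Bnip3 less, and Slc2a1 stood just past the fold limit. Vegfa, Ndrg1 and Slc16a3 were not past the limits, and Adm was nearly absent.

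**Figure D1:**
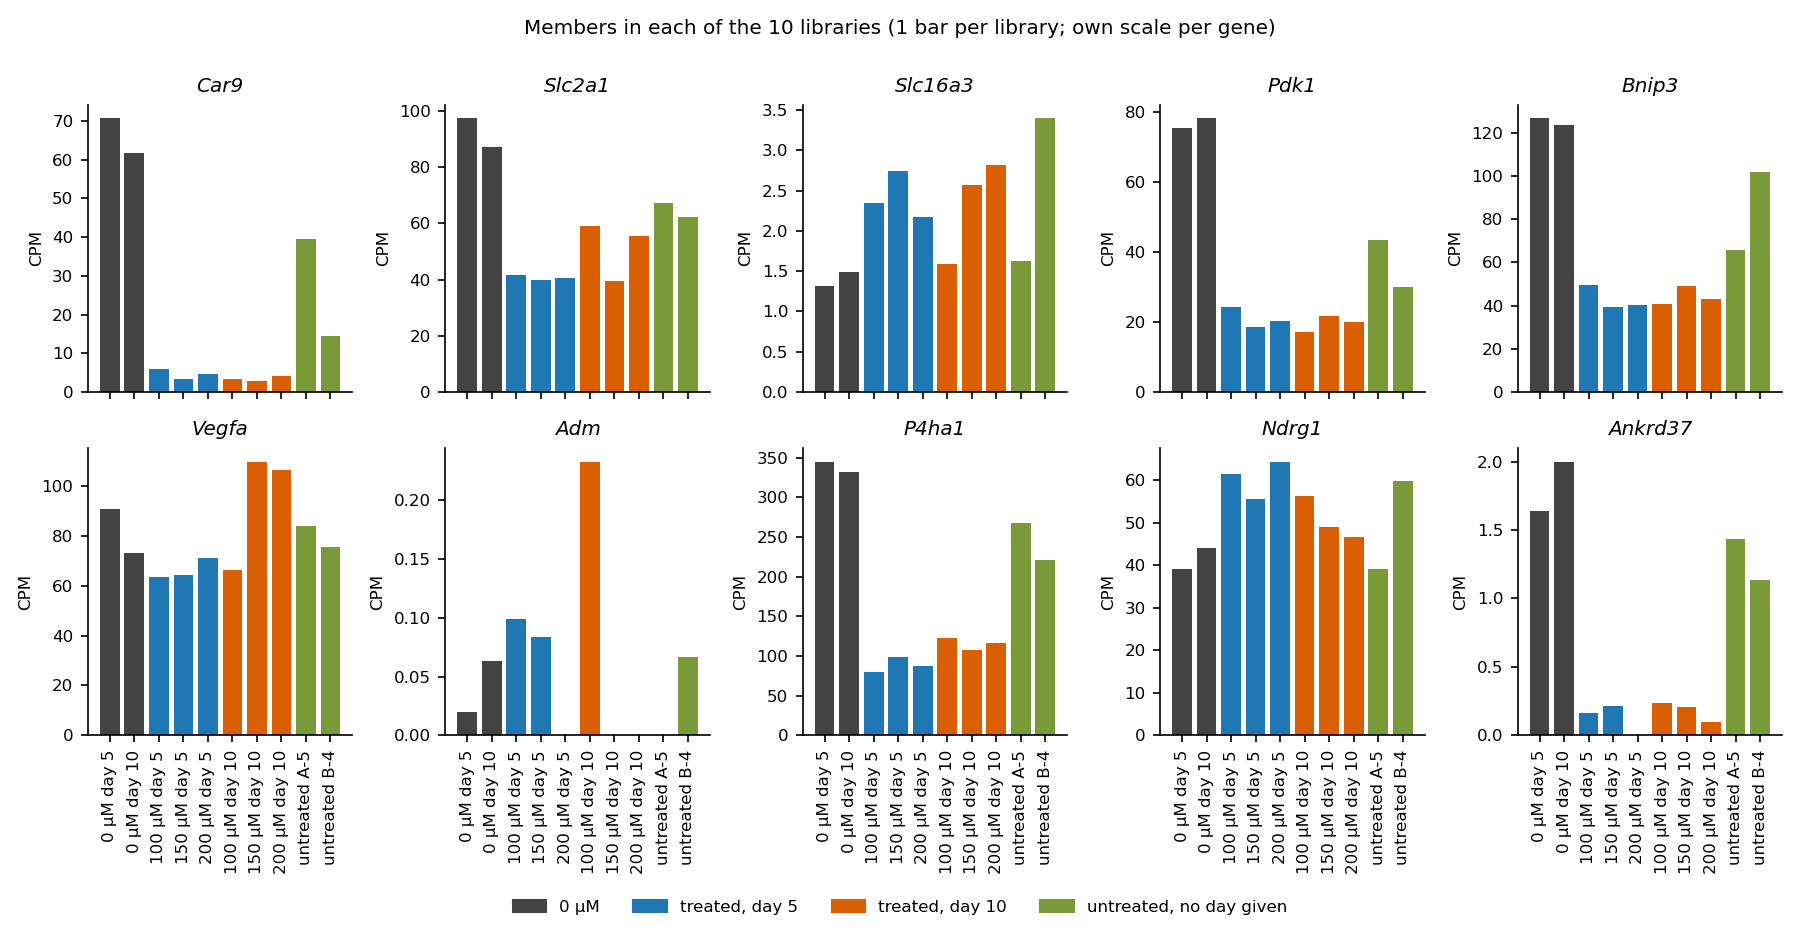
Level of each gene in CPM (vertical axis, starting at 0, own scale per gene) in the 10 libraries (horizontal axis), 1 bar per library. Car9 held 70.7 and 61.7 CPM at 0 μM and at most 6.03 CPM in the treated libraries, while Vegfa at 63.3 to 110 CPM overlapped the 0 μM libraries.

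Car9 (ENSMUSG00000028463, chromosome 4: 43506966 to 43513729 on GRCm38) encodes a carbonic anhydrase of the cell surface that acidifies the space outside the cell. It held 70.7 CPM at 0 μM on day 5 and 61.7 CPM on day 10. The treated libraries held 6.03, 3.44 and 4.74 CPM at 100, 150 and 200 μM on day 5 and 3.38, 2.81 and 4.01 CPM on day 10, a mean of 4.07 ± 1.16 CPM (SD, n = 6). All treated libraries were low and none overlapped the 0 μM libraries, and each held between 4.56% and 8.53% of the 0 μM library of its day. The log2 fold change was −4.04 (SE 0.18), or 16.4-fold lower, which placed Car9 at rank 24 of the 16794 genes tested, counted from the lowest. These values rest on 87 to 208 counts per treated library.

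Slc2a1 (chromosome 4: 119108711 to 119137983) encodes the glucose transporter GLUT1. It held 97.4 and 87.0 CPM at 0 μM on days 5 and 10. On day 5 the treated libraries held 41.7, 39.9 and 40.4 CPM at 100, 150 and 200 μM, and on day 10 they held 58.9, 39.6 and 55.7 CPM. All 6 were below both 0 μM libraries, those at 100 and 200 μM on day 10 least so. The log2 fold change was −1.01 (SE 0.15), close to the fold limit of 1. It fell short of that limit in 4 of 8 fits with 1 library left out, at −0.76 without 0 μM on day 5, −0.98 without 150 μM and −0.99 without 200 μM on day 5, and −0.94 without 150 μM on day 10. It also did so with no day covariate (−0.99) and with at least 10 counts in every library (−0.96).

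Slc16a3 (chromosome 11: 120948480 to 120960868) encodes the lactate exporter MCT4 and was low throughout. It held 1.32 and 1.49 CPM at 0 μM, from 66 and 47 counts. The treated libraries held 2.35, 2.74 and 2.17 CPM at 100, 150 and 200 μM on day 5 and 1.59, 2.57 and 2.82 CPM on day 10. All were above both 0 μM libraries, with the 100 μM library of day 10 only just so, and the log2 fold change was 0.78 (SE 0.27), inside the fold limit. Slc16a3 thus stood on the opposite side of 0 μM from Slc2a1.

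Pdk1 (chromosome 2: 71873224 to 71903858) encodes a kinase that switches off pyruvate dehydrogenase and so keeps pyruvate out of mitochondria. It held 75.4 and 78.1 CPM at 0 μM. On day 5 it held 24.4, 18.6 and 20.1 CPM at 100, 150 and 200 μM and on day 10 17.2, 21.6 and 20.0 CPM. The groups did not overlap, and the treated mean was 20.3 ± 2.49 CPM (SD, n = 6). The log2 fold change was −1.91 (SE 0.11).

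Bnip3 (chromosome 7: 138890836 to 138909519) encodes a protein of the outer mitochondrial membrane that promotes removal of mitochondria. Its 0 μM libraries nearly coincided, at 127 and 123 CPM. The treated libraries held 49.4, 39.4 and 40.2 CPM on day 5 and 40.7, 49.2 and 42.8 CPM on day 10, in the order 100, 150 and 200 μM. All treated libraries were low, at 31.1% to 39.8% of the 0 μM library of their day, and the log2 fold change was −1.51 (SE 0.10).

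P4ha1 (chromosome 10: 59323296 to 59373304) encodes the catalytic subunit of a collagen prolyl 4-hydroxylase and had the highest mean FPKM of the set in both groups. It held 345 and 333 CPM at 0 μM. The treated libraries held 80.1, 98.6 and 87.3 CPM on day 5 and 122, 108 and 117 CPM on day 10, again by rising dose. None overlapped the 0 μM libraries, the 3 of day 10 lay above the 3 of day 5, and the log2 fold change against 0 μM was −1.74 (SE 0.11).

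Ankrd37 (chromosome 8: 45996902 to 46005707), a gene for a protein with ankyrin repeats, was low but clearly counted at 0 μM. There it had 82 and 63 counts, or 1.64 and 2.0 CPM. The treated libraries had 5, 13 and 0 counts at 100, 150 and 200 μM on day 5 and 6, 11 and 5 counts on day 10, at most 0.233 CPM. A count of 0 in the 200 μM library of day 5 allows up to 0.0987 CPM (3 counts, counting error only). The log2 fold change was −3.51 (SE 0.52), the widest error of the set. Ankrd37 shares 57 exonic bases with Ufsp2 and 349 with Lrp2bp on the opposite strand, and the deposited counts are not stated to use strand, so its counts are uncertain to that extent.

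Vegfa (chromosome 17: 46016993 to 46032369), the main growth factor for blood vessels, did not follow the members that were lower in treated cells. It held 90.9 and 73.1 CPM at 0 μM on days 5 and 10. The treated libraries held 63.3, 64.4 and 71.3 CPM on day 5, all below their 0 μM library, and 66.4, 110 and 106 CPM on day 10, with those at 150 and 200 μM above theirs. The groups overlapped and the log2 fold change over both days was −0.06 (SE 0.21). Its direction rested on the 0 μM library used, at 0.37 without the one of day 5 and −0.44 without the one of day 10.

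Ndrg1 (chromosome 15: 66929318 to 66969640), a gene linked to growth arrest and stress, held 39.2 and 44.0 CPM at 0 μM. The treated libraries held 61.6, 55.7 and 64.4 CPM on day 5 and 56.4, 48.9 and 46.6 CPM on day 10, by rising dose. All were above both 0 μM libraries, most clearly on day 5, with a log2 fold change of 0.42 (SE 0.13). That value was 0.21 with the 0 μM library of day 5 left out, 0.64 with that of day 10 left out and 0.17 against the untreated pair. Adm (chromosome 7: 110627661 to 110629820), the gene for the vessel-widening peptide adrenomedullin, had 0 to 6 counts in every library and was not tested. Ndrg1, Car9, Slc2a1 and Bnip3 share exonic bases with antisense transcripts of the M21 annotation (105 to 504 bases), which were not analysed here.

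**Figure D2:**
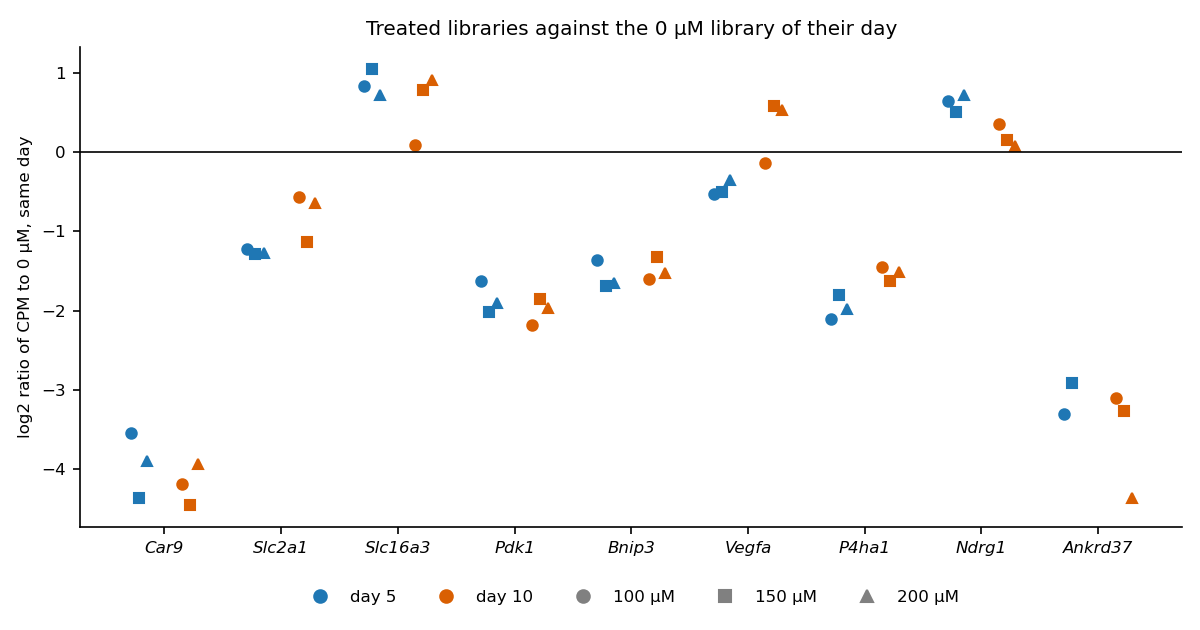
Log2 ratio of CPM in each treated library to the 0 μM library of the same day (vertical axis) for 9 genes (horizontal axis), with colour for day and symbol for dose; the library of Ankrd37 with 0 counts is not drawn and Adm is left out. Car9, Slc2a1, Pdk1, Bnip3, P4ha1 and Ankrd37 lie below 0 in every library drawn, Ndrg1 and Slc16a3 above 0, and Vegfa on both sides.

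Levels of different genes were compared by FPKM, which scales counts to transcript length. At 0 μM the order of the mean FPKM was P4ha1 (89.9), Bnip3 (64.7), Car9 (29.5), Slc2a1 (26.0), Vegfa (23.4), Pdk1 (13.3), Ndrg1 (13.0), Ankrd37 (1.77), Slc16a3 (0.346) and Adm (0.0170). Slc2a1 and Vegfa overlapped between the 2 libraries, as did Pdk1 and Ndrg1. In treated cells P4ha1 (25.9 ± 3.50 FPKM, SD, n = 6), Vegfa (22.3 ± 5.70) and Bnip3 (22.2 ± 2.09) overlapped at the top. Ndrg1 (17.0 ± 2.41) and Slc2a1 (12.4 ± 2.12) also overlapped, followed by Pdk1 (3.44 ± 0.464), Car9 (1.77 ± 0.534), Slc16a3 (0.532 ± 0.155), Ankrd37 (0.135 ± 0.0777) and Adm (0.0409 ± 0.0534). Car9 moved from place 3 to place 7. Vegfa moved from place 5 to place 2 with its own mean little changed (23.4 and 22.3 FPKM), and the overlapping top places were not resolved. In treated cells Vegfa (17.8 to 29.6 FPKM) also overlapped Ndrg1 (14.3 to 20.0 FPKM), so their order was not resolved either. Adm stayed last by mean but overlapped Ankrd37 in treated cells.

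**Figure D3:**
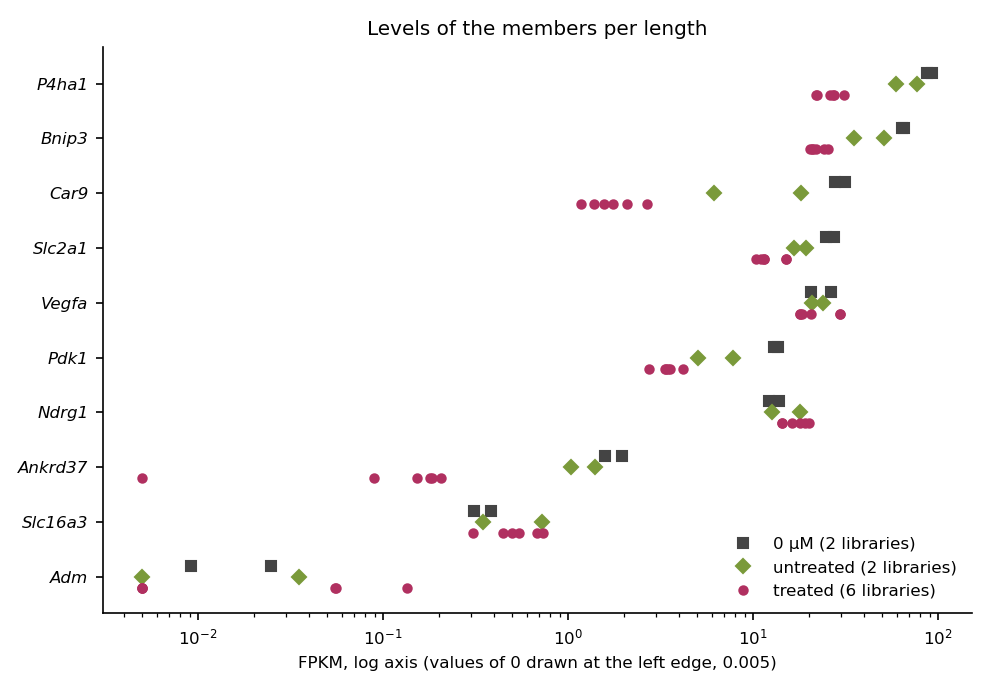
FPKM (horizontal axis, logarithmic; values of 0 drawn at the left edge) of each gene in the 2 libraries at 0 μM, the 2 untreated libraries and the 6 treated libraries, 1 symbol per library. Car9 shows the widest gap that rests on more than 50 counts per library, from 27.6 and 31.4 FPKM at 0 μM to at most 2.66 FPKM in treated cells.

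The day of culture and the dose were not used to choose the genes, so these were tested among the treated libraries with edgeR's quasi-likelihood test over all genes. Between days 10 and 5, 0 of 8 members tested were called, against 0.905% of the 16020 genes tested called higher and 0.144% called lower. At an unadjusted p under 0.05 there were 4 of 8, against 2930 of the 16020 genes. With DESeq2 2 of 8 had an adjusted p under 0.05, none beyond a log2 of 1. The share of all genes at that DESeq2 limit is not given here. P4ha1 was 88.7 ± 9.28 CPM on day 5 and 116 ± 7.03 CPM on day 10 (SD, n = 3 each), a log2 difference of 0.38 (SE 0.10, adjusted p = 0.0819, or 0.0241 with DESeq2). Vegfa was 66.3 ± 4.32 and 94.1 ± 24.1 CPM, a log2 difference of 0.51 (SE 0.16, adjusted p = 0.139, or 0.0441 with DESeq2). The lowest Vegfa library of day 10 was that at 100 μM, with 66.4 CPM, and without it the difference was 0.70 (adjusted p = 0.0110). With any other treated library left out, the edgeR difference was 0.39 to 0.56 (adjusted p 0.198 to 0.407).

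The remaining members differed less between days or with more spread. Slc2a1 was 40.7 ± 0.916 CPM on day 5 and 51.4 ± 10.3 CPM on day 10, a log2 difference of 0.34 (SE 0.14, edgeR adjusted p = 0.242). Ndrg1 was 60.6 ± 4.43 and 50.6 ± 5.10 CPM, a log2 difference of −0.26 (SE 0.11, adjusted p = 0.232). Car9 was 4.74 ± 1.29 and 3.40 ± 0.601 CPM, at −0.47 with a 95% interval of −1.02 to 0.09 (adjusted p = 0.363). Bnip3 (0.04, interval −0.21 to 0.30), Pdk1 (−0.10, −0.40 to 0.20) and Slc16a3 (−0.05, −0.62 to 0.52) were closest to 0. Ankrd37 and Adm had too few counts for this test.

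Over 100, 150 and 200 μM, with day as a covariate, 0 of 8 members were called, and edgeR called 0% of the 16020 genes, with 380 at an unadjusted p under 0.05. DESeq2 called 1 gene higher and 1 lower with dose, none a member. Only Vegfa had an unadjusted p under 0.05 among the members, with a log2 slope of 0.39 per 100 μM (95% interval 0.00482 to 0.783, adjusted p = 0.996). That slope was 0.12 without the 100 μM library of day 10. Car9, at −0.07 per 100 μM, had an interval of −0.77 to 0.63, and P4ha1, at 0.00396, one of −0.31 to 0.31, so slopes within these bounds were not resolved with 6 libraries. Dose and depth moved together only in part. On days 5 and 10 the 100 μM libraries held 29833654 and 27108562 counts and the 150 μM libraries 57220036 and 58218009. Those at 200 μM held 29637936 and 53666325. The part of depth was not tested.

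The difference between the treatment effects of days 10 and 5 was tested for 9 members and 0 were called, against 0.0119% of the 16794 genes. Vegfa had the largest such difference on the log2 scale, 0.80 (SE 0.33, 95% interval 0.06 to 1.55, adjusted p = 0.563). It was the 1 of 9 members with an unadjusted p under 0.05, against 1395 of the 16794 genes. For Car9 the difference was −0.28 (interval −1.16 to 0.60), for Slc2a1 0.48 (−0.15 to 1.12) and for P4ha1 0.42 (−0.04 to 0.88). Each day has 1 library at 0 μM, which the model takes to vary like the treated ones.

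**Figure D4:**
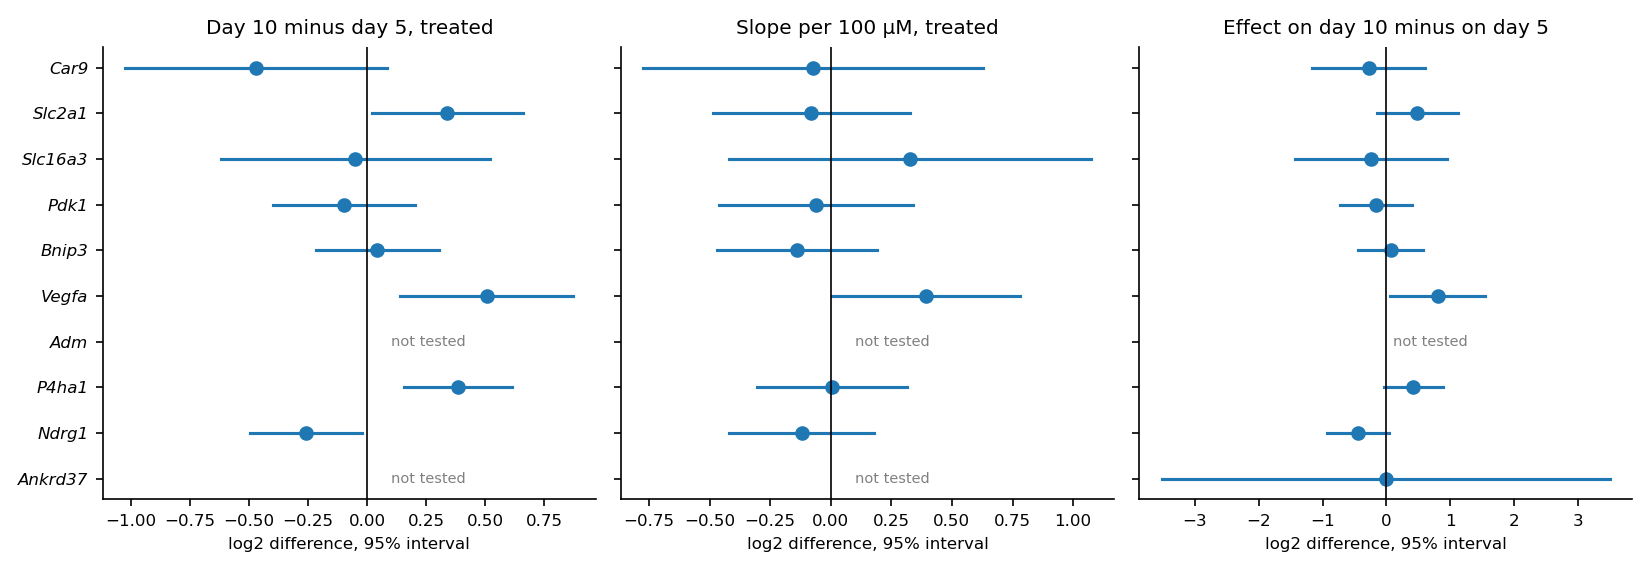
Log2 differences (horizontal axis, with 95% intervals) of each gene for day 10 minus day 5 in treated cells, for the slope per 100 μM in treated cells, and for the treatment effect on day 10 minus that on day 5. Points near 0 with wide intervals, such as Ankrd37 in the right panel, are not resolved, and for Vegfa all 3 intervals lie above 0 before adjustment over all genes.

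The rest of the hypoxia programme was described by lists written from known roles. Over all genes tested, 5.98% were called lower and 13.4% higher, the shares to set beside the counts for these and the following lists. Of 44 tested hypoxia targets outside the set (50 listed), 14 were called lower and 2 higher in treated cells by edgeR, with a median log2 fold change of −0.70 against 0.05 over all genes. The lowest by the naming rule were Angptl4 (−3.54, SE 0.40, adjusted p = 0.000117), a lipase inhibitor, and Ak4 (−2.79, SE 0.16, adjusted p = 2.48e-06), a mitochondrial adenylate kinase. They were followed by Egln3 (−2.23), an oxygen-sensing prolyl hydroxylase, Fam162a (−1.91) and Fos (−1.86), an early-response transcription factor. Fos is raised by many stimuli and held 61.9 CPM in the untreated library A-5 and 3.10 CPM in B-4. The 2 called higher were Ddit4 (1.49, SE 0.17, adjusted p = 0.000114), an inhibitor of mTOR signalling, and Vldlr (1.03, SE 0.36, adjusted p = 0.0420), a lipoprotein receptor.

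Of 17 tested rows for glycolytic enzymes, 12 were called lower and 0 higher, against 5.98% and 13.4% of all genes tested. The median log2 fold change was −1.41 against 0.05 over all genes. Aldoa entered under ENSMUSG00000030695 and again under ENSMUSG00000114515, the latter at 3.78 and 3.27 CPM at 0 μM. Pgk1 (−2.36, SE 0.10), Eno1 (−2.01, SE 0.09), Tpi1 (−1.87, SE 0.08) and Pfkl (−1.84, SE 0.08), which act along the path from glucose to pyruvate, each had an adjusted p of 6.22e-07. Gapdh was at −2.25 (SE 0.13, adjusted p = 2.83e-06), but it has many near-identical copies in the mouse genome and its counts, 69.3 CPM at 0 μM against 1215 CPM for Pgk1, are uncertain. Hk2, the inducible hexokinase, was at 0.08 (SE 0.15, adjusted p = 0.672).

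**Figure D5:**
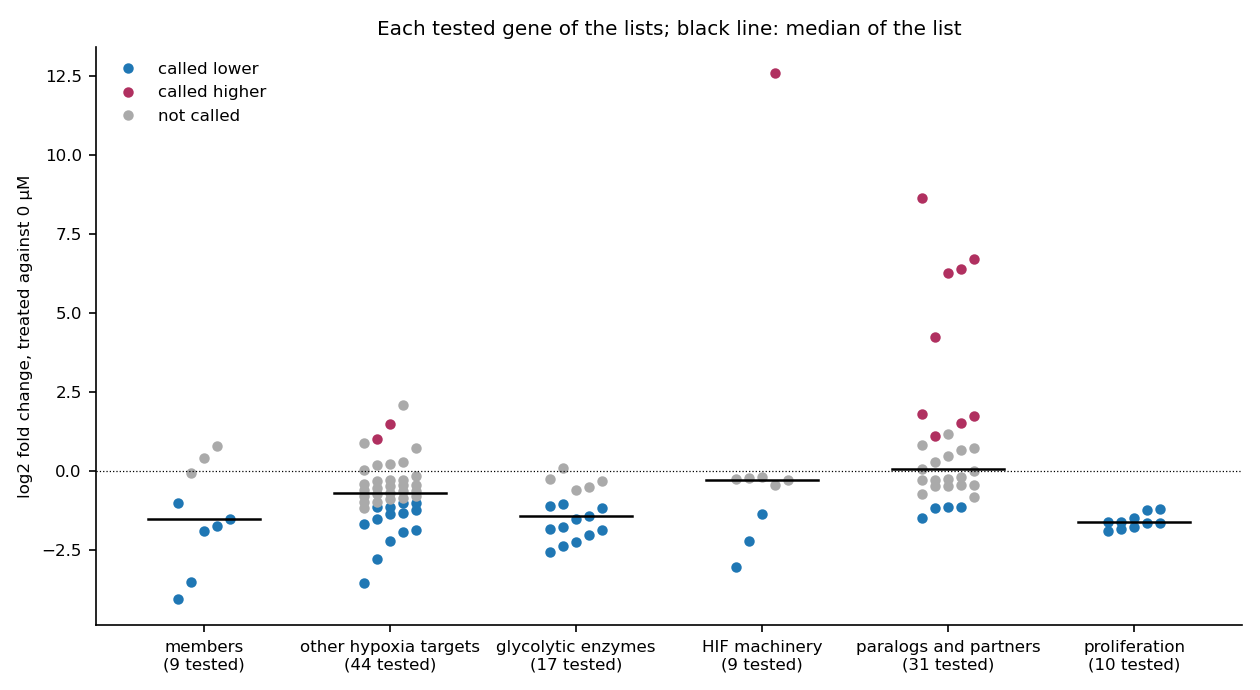
Log2 fold change between treated cells and 0 μM (vertical axis) of each tested gene in 6 lists (horizontal axis), coloured by call, with a black line at the median of the list. The medians were −0.70 for other hypoxia targets, −1.41 for glycolytic enzymes and −1.62 for proliferation genes; the lists of hypoxia targets, HIF machinery and partners share some genes, and genes with 0 counts at 0 μM have fold changes that are no bound.

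Of 9 tested genes of the HIF machinery, 3 were called lower and 1 higher. Hif1a, the gene for the oxygen-regulated subunit, which is controlled mainly as a protein, held 282 and 337 CPM at 0 μM and 193 to 350 CPM in treated cells, with a log2 fold change of −0.25 (SE 0.23, adjusted p = 0.405). Egln1, the main oxygen sensor, fell by 1.35 on the log2 scale (SE 0.08, adjusted p = 2.58e-06), and Arnt2, a partner subunit, by 3.03 (SE 0.27, adjusted p = 3.07e-05). Hif3a, the gene for a subunit whose short forms can inhibit HIF, had 0 counts in both 0 μM libraries and in A-5, 2.37 CPM in B-4, and 13.4 to 26.6 CPM in treated cells. The mean of day 5 was at least 243-fold higher than the floor of 3 counts in its 0 μM library, and that of day 10 at least 255-fold higher. Epas1, the gene for the other main oxygen-regulated subunit, stayed at or below 0.263 CPM and was not tested.

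Among paralogs, receptors and partners of the set, 4 of 31 tested genes were called lower and 9 higher, with a median of 0.08. Those beyond the naming rule were singled out after their values were seen, because they belong to the families of the members. The lactate transporter Slc16a1 fell by 1.18 on the log2 scale (SE 0.12, adjusted p = 6.59e-05), and its chaperone Bsg was at −0.19 (adjusted p = 0.139). P4ha2 fell by 1.14 (SE 0.11) beside P4ha1, and P4hb, the subunit both share, was at 0.08 (adjusted p = 0.647). Vegfb fell by 1.13 (SE 0.14), while Flt1, a Vegfa receptor, was at 0.28 (adjusted p = 0.226), and the co-receptor Nrp2 rose by 1.51 (SE 0.26, adjusted p = 0.00116). Bnip3l, the close relative of Bnip3, was at −0.71, inside the fold limit. The other kinases of the Pdk1 family were also inside it and lay on both sides, with Pdk3 at −0.44, Pdk2 at 0.47 and Pdk4 at 0.66. The phosphatase Pdp1, which opposes these kinases, rose by 1.76 (SE 0.16, adjusted p = 3.42e-05).

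While Adm was nearly absent, genes for parts of its receptor and of the related CGRP receptor differed in direction. Ramp2, which forms an adrenomedullin receptor with Calcrl, stood at 3.14 and 4.63 CPM at 0 μM and at 50.04 to 82.8 CPM in treated cells, a log2 fold change of 4.25 (SE 0.26, adjusted p = 3.24e-06). Ramp3, which forms another, was at 0.01 (SE 0.39, adjusted p = 0.979), with 0.599 and 0.603 CPM at 0 μM and 0.428 to 0.828 CPM in treated cells. Ramp1, a part of the CGRP receptor, had 21 and 0 counts at 0 μM and 3.15 to 62.5 CPM in treated cells, and rose between days 5 and 10 in treated cells by 2.39 (SE 0.49, adjusted p = 0.0387). Calcrl, their shared partner, was called lower at −1.49 (SE 0.40, adjusted p = 0.0126), at 2.0 and 1.68 CPM at 0 μM.

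All 10 of 10 proliferation genes tested were also called lower in treated cells, with a median of −1.62 and a summed level of 2473 to 2704 CPM at 0 μM against 696 to 1275 CPM in treated cells. The 5 named by the rule, Aurkb (−1.89), Birc5 (−1.83), Ccnb1 (−1.77), Ccna2 (−1.64) and Bub1 (−1.64), act in division. The part of this difference in the members' levels was not tested. In the untreated libraries the same list summed to 1617 CPM in A-5 and 199.6 CPM in B-4.

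The untreated libraries lay between the groups for most members. Car9 was 39.6 CPM in A-5 and 14.4 CPM in B-4, or 59.8% and 21.8% of the 0 μM mean, both above the highest treated library. P4ha1 was 268 and 221 CPM, Pdk1 43.4 and 30.0 CPM, Slc2a1 67.4 and 62.1 CPM, and Ankrd37 1.44 and 1.13 CPM in A-5 and B-4, each above every treated library and below both at 0 μM. Bnip3 ran the other way between them, with 65.7 CPM in A-5 and 102 CPM in B-4. Compared with the pair of untreated libraries alone, the log2 fold changes were −2.74 for Car9, −3.02 for Ankrd37, −1.26 for P4ha1, −0.94 for Bnip3, −0.86 for Pdk1 and −0.49 for Slc2a1. There 3 members were past the limits on the lower side in place of 6. Calls also fell over all genes, to 460 lower of 16012 tested in place of 1005 of 16794. Vegfa (84.0 and 75.5 CPM) was within the treated range in both, and Ndrg1 was within it in B-4 (59.8 CPM) but beside the 0 μM library of day 5 in A-5 (39.2 CPM). Slc16a3 was highest of all libraries in B-4, at 3.40 CPM.

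Likeness to Car9 was measured by Pearson's r of log2 CPM over the 10 libraries, as a description over libraries that share treatment, with 10386 other genes as candidates. The 8 most alike were Synpo (r = 0.992), Irak2 (0.992), Gpr137b (0.989), Pacsin2 (0.988), Trib1 (0.987), Pik3cb (0.987), Rhoc (0.987) and Ctbp2 (0.986). Among the members, Pdk1 came closest (0.970, with 53 candidates above it), then P4ha1 (0.929, 286), Bnip3 (0.896, 544), Slc2a1 (0.876, 731) and Ankrd37 (0.853, 926). Vegfa (0.05), Adm (−0.14), Slc16a3 (−0.62) and Ndrg1 (−0.68) were unlike it over the 10 libraries. The treated libraries form a low cluster, and within those 6 the order differed. There r was highest for Ndrg1 (0.63), which was negative over all 10, then Pdk1 (0.56), Bnip3 (0.15), Adm (0.06), Slc16a3 (−0.01), Slc2a1 (−0.13), Ankrd37 (−0.45), Vegfa (−0.47) and P4ha1 (−0.76). The mean of the members' standardised levels was most like Kdm3a (0.983), a histone demethylase that is itself a hypoxia target, followed by Pgs1, Psmd10, Plcd3, Prkca, Wrap73, Bap1 and Uqcrc1 (0.971 to 0.956).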

How the data were processed

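The authors deposited 1 table with raw counts of reads per gene and FPKM for 10 libraries, on 22036 Ensembl genes and 7547 new loci. The submitters' processing notes name HISAT2 2.0.4 and GATK 3.2-2 without a role; the genome build, annotation, counter and strand setting are not given in the sources used here. The table's 39 columns of single-library comparisons and its pathway terms were not used.

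Counts were tested with edgeR 4.0.16 (TMM, filterByExpr, quasi-likelihood, Benjamini-Hochberg adjusted p) in R 4.3.3, with day as a covariate against 0 μM; DESeq2 1.42.0 and limma 3.58.1 served alternatives. Log2 CPM used a prior count of 2 and log2 FPKM a pseudocount of 1. Intervals are at 95%. Library totals were 27108562 to 58218009 counts, where 3 counts stood for 0.0501 to 0.117 CPM. Scripts were tested on simulated data. No 2 libraries held identical counts. With 1 library per dose and day, the spread behind the p-values is that between doses, which mixes dose, culture and technical differences. Whether the RNA extractions came from separate cultures is not stated.

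Positions are from GENCODE M21 by Ensembl identifier (22022 of 22036 matched) and promoters from RefSeq, both on GRCm38. Named genes were all members, up to 5 called genes per other list with the largest fold change and at least 1 CPM on average, and the 8 most alike profiles at 5 CPM or more. The members, lists and tests were chosen with earlier results of these data known.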

Additional observations from a re-analysis of the deposited data

How the results depend on the processing

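The limits are the single 0 μM library per day, doses standing in for replicates, and the low counts of Ankrd37, Slc16a3 and Adm. In the tests of day, dose and their interaction with treatment, 0 members were called under any alternative run. For day, an adjusted p under 0.05 with a log2 difference below 1 was reached in a minority of the 14 fits. P4ha1 reached it in 3 of 14 (adjusted p 0.0241 to 0.318), Vegfa in 3 of 14 (0.0110 to 0.407) and Slc2a1 in 1 of 14 (0.0375 to 0.551). The smallest adjusted p over alternatives was 0.464 for dose and 0.147 for the interaction. Against 0 μM, the contrast they were chosen on, 6 members were past the limits on the lower side, 5 to 6 with 1 library left out, 4 with at least 10 counts in every library, 5 with no day covariate or with the untreated libraries added, and 3 against the untreated pair alone. Without the fold limit 2 of 9 members tested, Ndrg1 and Slc16a3, were past the remaining limit on the higher side, against 3790 of all 16794 genes tested. No more is read from that count, since the members were chosen on this contrast. Slc16a3 was at −0.08 against the untreated pair alone. Other hypoxia targets called lower numbered 14, and 3 against the untreated pair alone, 9 with them added, 29 without the fold limit and 13 to 17 with 1 library left out. Those called higher numbered 2, and 1 with DESeq2, with library totals, with the untreated libraries added and with limma on FPKM, and 1 to 3 with 1 library left out: 3 without the 0 μM library of day 5, and 1 without the 100 μM library of either day or the 200 μM library of day 5. Glycolytic enzymes called lower numbered 12, 11 to 12 with 1 library left out, and 3 against the untreated pair alone. The cause was not tested for any of these.

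Over all genes, 2254 were higher and 1005 lower against 0 μM, and 1078 and 460 against the untreated pair alone, 1286 and 453 with them added, 3790 and 3490 without the fold limit, 528 and 613 with limma, and 1099 higher with at least 10 counts in every library. Between days, 145 and 23 became 218 and 60 with DESeq2, 274 and 72 with at least 1 count in total, 333 and 115 without the fold limit, 49 and 7 with limma, 18 and 0 without the 200 μM library of day 5, 27 and 3 without that of day 10, and 72 lower with library totals, where the median of all genes shifted to −0.13. The 0 of the dose trend became 49 and 59, and the 2 of the interaction 77 and 23, with at least 1 count in total; DESeq2 gave 49 and 23 for the interaction. With at least 1 count in total the median of all genes against 0 μM rose from 0.05 to 0.27.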

Other observations

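The untreated libraries differed from each other in members and in other hypoxia targets, each with 1 value and no test. Car9 was 2.75-fold higher in A-5 than in B-4 and Pdk1 1.45-fold higher. Bnip3 was 1.55-fold higher in B-4, Ndrg1 1.53-fold and Slc16a3 2.08-fold. Ddit4 was 169 CPM in A-5 and 588 CPM in B-4, the latter above the highest treated library at 338 CPM. Vldlr was 4.31 CPM in A-5 and 36.8 CPM in B-4, both below the lowest treated library at 54.3 CPM. P4ha2, at 36.4 and 36.2 CPM, was near the lowest treated library (35.9 CPM), although P4ha1 in the same libraries was above every treated one.

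A match to the HIF core stood before members on both sides of 0 μM, and before 53.2% of the starts of genes tested. Slc16a3 holds 2 matches and Ankrd37 4, a pair of which overlaps, with log2 fold changes of 0.78 and −3.51. Slc16a3 was inside the fold limit, and at −0.08 against the untreated pair alone. The part of these matches in the levels was not tested.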
